A study of Mus musculus with 9 samples.

Results

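The 8 genes described here mark the cells of adaptive immunity and their cytotoxic relatives, and were taken by symbol from a table of 16231 mouse genes. Of these, 5 belong to the B lineage (Jchain, Cd79a, Cd79b, Ms4a1 and Mzb1) and 3 to T and natural killer (NK) cells (Cd3e, Cd8a and Nkg7), and all 8 had a row. RNA was sequenced from 9 libraries of mouse tissue in 3 groups of 3: young untreated, aged untreated, and aged given EGCG (epigallocatechin gallate, a polyphenol of green tea). The sources used here give no strain, sex, age in weeks, dose or route. The series' design text mentions duplicates without saying which samples are meant, and nothing states that each library came from its own animal, so SDs and p-values measure only how far these libraries spread, which may be technical. The libraries held 34240500 to 39922044 counts each, so 3 counts in a library correspond to 0.0752 to 0.0876 CPM (counts scaled to library size). The labels name the retina as the tissue, and of 12 genes of retina and pigment epithelium 6 had a row. The rod arrestin gene Sag had 12 counts over the 3 young libraries, 1 over the aged and 2 over the treated ones. Gnat1, the rod transducin gene, was detected at 29.2 ± 2.6, 10.04 ± 0.33 and 4.74 ± 0.71 CPM. The 7 hepatocyte genes checked, led by albumin (Alb), summed to between 109200 and 120000 CPM in every library. The libraries are therefore called young, aged and EGCG-treated aged, without a tissue.

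B cells recognise antigen through a membrane immunoglobulin that signals through the paired chains encoded by Cd79a and Cd79b, and mature B cells carry CD20, the product of Ms4a1. When B cells become antibody-secreting plasma cells they lose CD20 and make large amounts of immunoglobulin together with the J chain (Jchain), which links IgA and IgM into polymers, and MZB1, a chaperone of the endoplasmic reticulum that helps antibody assembly. T cells carry CD3, whose epsilon chain is encoded by Cd3e. CD8 alpha, from Cd8a, is the coreceptor of cytotoxic T cells, and Nkg7 encodes a membrane protein of cytotoxic granules in NK cells and cytotoxic T cells. In the liver such cells lie mainly in the sinusoids and portal tracts, and the polymeric immunoglobulin receptor (Pigr) of hepatocytes in rodents carries J chain-linked antibody into bile.

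The upstream sequences of Jchain and Cd79a are shown because these are the B lineage genes whose changes with treatment passed the test in opposite directions. Both are from RefSeq (GRCm38.p6), 5′ to 3′ on the strand of the gene. Each runs up to the earlier of the starts that RefSeq and GENCODE M21 give, and RefSeq windows were found for 5 of the 8 genes. Capitals mark the E-box letters CAGGTG or their reverse complement CACCTG, which E proteins of lymphocytes such as E2A are known to bind, searched on both strands. The first sequence lies on the minus strand at chr5:88527898-88528147 and the second on the plus strand at chr7:24897247-24897380.
Jchain: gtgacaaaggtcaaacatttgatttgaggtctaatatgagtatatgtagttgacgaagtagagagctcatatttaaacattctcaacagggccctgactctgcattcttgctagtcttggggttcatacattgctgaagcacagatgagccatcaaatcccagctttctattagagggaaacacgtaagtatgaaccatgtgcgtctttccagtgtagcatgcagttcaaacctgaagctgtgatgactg
Cd79a: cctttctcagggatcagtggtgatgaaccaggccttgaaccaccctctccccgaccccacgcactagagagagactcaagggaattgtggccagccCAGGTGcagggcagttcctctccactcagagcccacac
The 134 bases of Cd79a held the E-box from base 97 of the window, as 9.75% of 32851 RefSeq windows did over the same length. The 250 bases of Jchain did not hold these letters, which 17.2% of windows of that length contained. Nor did the windows of Cd3e, Cd8a and Nkg7. A match is a string of letters and was not tested as a binding site.

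In GENCODE M21 on GRCm38, Jchain spans chromosome 5 from 88519809 to 88527891 (minus strand), Cd79a chromosome 7 from 24897381 to 24902197 (plus) and Cd79b chromosome 11 from 106311341 to 106314762 (minus). Ms4a1 spans chromosome 19 from 11249675 to 11266241 (minus), Cd3e chromosome 9 from 44998740 to 45009627 (minus), Cd8a chromosome 6 from 71373427 to 71379173 (plus) and Nkg7 chromosome 7 from 43437073 to 43438249 (plus). All are protein-coding, and counts were given per whole gene, without exons. Antisense models overlap Ms4a1 and Cd3e, and a protein-coding model overlaps Mzb1 on the same strand. The sources used here do not say whether the libraries kept strand, so reads of such pairs may not be told apart.

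In the young libraries the 8 genes were at or near the limit of detection. Over the 3 young libraries together, Jchain had 32 counts, Cd3e 12, Ms4a1 8, Nkg7 6, Mzb1 5, Cd79a 3, Cd8a 3 and Cd79b 1. Per length and depth (FPKM, the authors' deposited values), the young means ran from 0.145 for Jchain to 0.00754 for Cd79b, and every gene overlapped its neighbour in that order. In the aged libraries Jchain stood first at 6.60 ± 0.91 FPKM (SD, n = 3), apart from Cd79b at 1.05 ± 0.16, which overlapped Cd79a at 0.793 ± 0.33. Mzb1 (0.613), Nkg7 (0.461), Cd3e (0.312), Ms4a1 (0.121) and Cd8a (0.065) followed, and the pairs Nkg7 and Cd3e, and Cd3e and Ms4a1, did not overlap. In the treated libraries Jchain at 2.21 ± 0.13 FPKM was no longer apart from Cd79a at 1.72 ± 0.84. Then came Cd79b (0.669), Nkg7 (0.630), Cd3e (0.401), Mzb1 (0.345), Ms4a1 (0.219) and Cd8a (0.199), so that the means of Nkg7 and Cd3e stood above that of Mzb1 there and below it in the aged group. Cd3e and Mzb1 overlapped in the treated group, and Cd79a and Cd79b, Nkg7 and Cd3e, and Mzb1 and Ms4a1 did not. In bulk RNA, fewer cells of a type and less RNA per cell cannot be told apart.

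**Figure D1:**
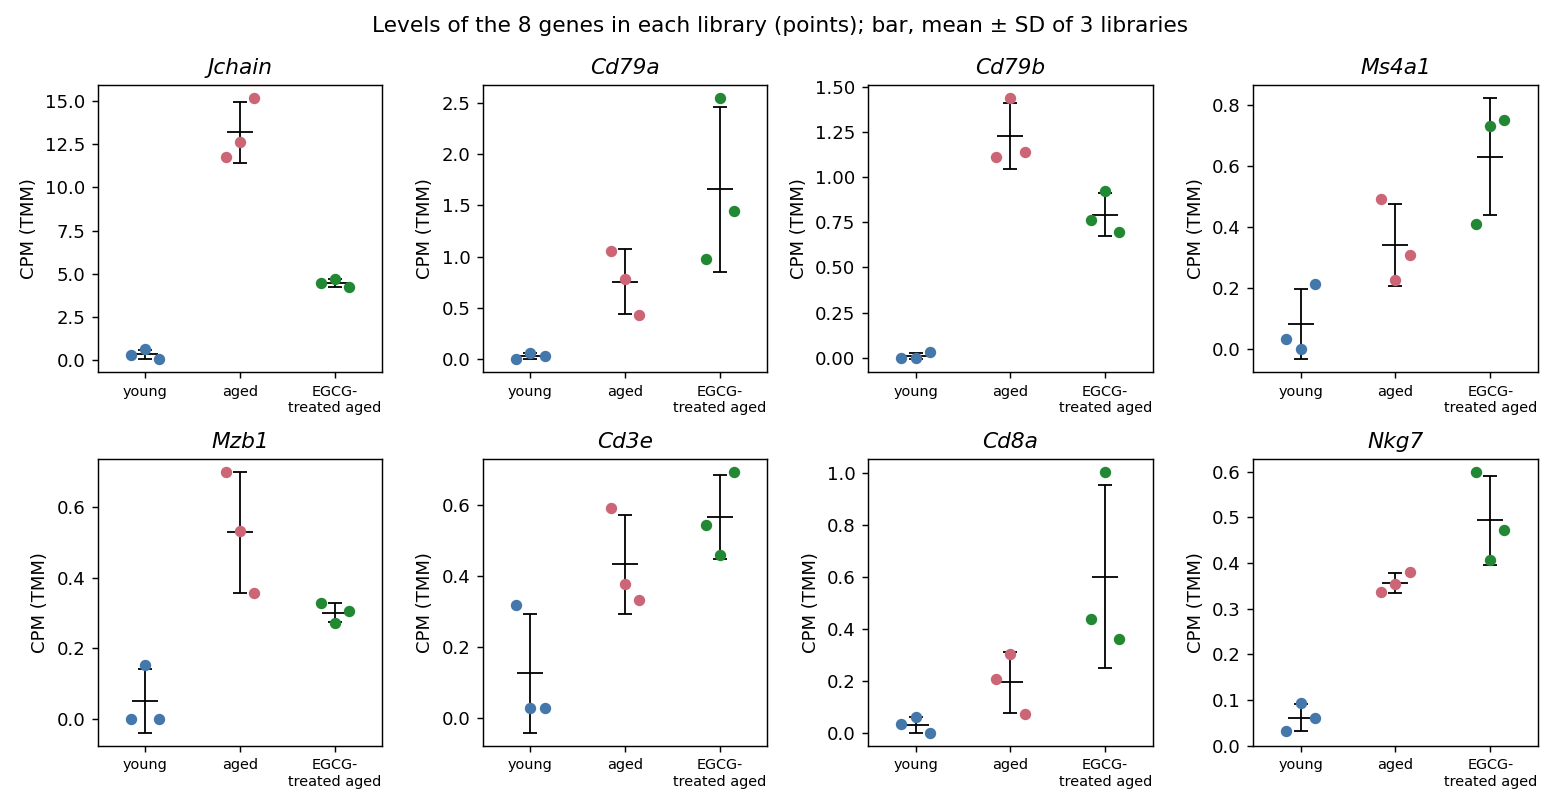
CPM with TMM library sizes (y axis, linear) of each of the 8 genes in the 3 young, 3 aged and 3 EGCG-treated aged libraries (x axis); points are libraries and bars are the mean ± SD. Jchain fell from 13.2 to 4.48 CPM between the aged and the treated group, whereas Cd79a, Ms4a1, Cd8a, Cd3e and Nkg7 had their highest mean in the treated group.

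The first comparison, of aged and young libraries, asks how the genes differ with age. All 8 were higher in the aged group, and Jchain reached by far the highest level. It had 9, 20 and 3 counts in the young and 456, 499 and 639 in the aged libraries, or 0.332 ± 0.27 against 13.2 ± 1.8 CPM (SD, n = 3), a ratio of summed counts per depth of 39.9 and a fitted log2 fold change of 5.30 (SE 0.23, adjusted p = 1.18e-23). The lowest aged library held 456 counts and the highest young library 20, so the groups lay far apart. Both chains of the B cell receptor complex rose from almost nothing. Cd79a had 0, 2 and 1 counts in the young and 41, 31 and 18 in the aged libraries (0.0307 ± 0.031 against 0.756 ± 0.32 CPM, log2 fold change 4.46, SE 0.74, adjusted p = 1.3e-06). Cd79b had 0, 0 and 1 counts in the young and 43, 57 and 48 in the aged libraries (0.0101 ± 0.017 against 1.23 ± 0.18 CPM, 6.48, SE 0.78, adjusted p = 1.25e-09). With so few young counts the ratio is loosely bounded: 24.1 for Cd79a with an exact 95% interval of 7.97 to 119, and 119 for Cd79b with an interval of 21.0 to 4720. These intervals cover counting error alone.

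Mzb1 and Ms4a1, the other B lineage genes, also rose. Mzb1 had 0, 5 and 0 counts in the young libraries and 27, 21 and 15 in the aged ones (log2 fold change 3.26, SE 0.81, adjusted p = 0.000482). Ms4a1 had 1, 0 and 7 counts in the young and 19, 9 and 13 in the aged libraries (2.0, SE 0.77, adjusted p = 0.0204). The highest young library of Ms4a1 came close to the lowest aged one, at 0.212 against 0.227 CPM. The 3 T and NK genes rose as well. Cd3e had 10, 1 and 1 counts in the young and 23, 15 and 14 in the aged libraries (1.77, SE 0.69, adjusted p = 0.0224). Of its 12 young counts 10 were in library 1, which at 0.320 CPM lay just under the lowest aged library at 0.332 CPM. Cd8a had 1, 2 and 0 counts in the young and 8, 12 and 3 in the aged libraries (2.5, SE 1.0, adjusted p = 0.0262), a ratio of 6.15 with an exact 95% interval of 1.86 to 32.0. Nkg7 had 1, 3 and 2 counts in the young and 13, 14 and 16 in the aged libraries (2.46, SE 0.75, adjusted p = 0.00379).

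All 8 genes thus passed the test upward with age, where 33.4% of the 12747 genes tested did and 69.5% passed in either direction. The count is no support by itself, because the filter on low counts asked for at least 0.282 CPM in at least 3 libraries. Of the young libraries, 1 reached that for Jchain, 1 for Cd3e and 0 for the other genes, so a gene could enter the test only through the aged or treated libraries in which it was high. The 3 weakest calls rested on single libraries. Ms4a1 missed the threshold without aged library 1 (log2 fold change 1.66, adjusted p = 0.0901), young library 1 (1.65, 0.0778) or young library 2 (1.44, 0.101). Cd3e missed it without aged library 1 (1.48, adjusted p = 0.0924), young library 2 (1.31, 0.106) or young library 3 (1.30, 0.108). Cd8a missed it without aged library 2 (2.02, adjusted p = 0.118), young library 1 (2.52, 0.0555) or young library 3 (1.95, 0.101), and on log2(FPKM + 1), a scale that understates low genes, with limma (0.08, adjusted p = 0.276), and on log2(FPKM + 0.1) (0.57, adjusted p = 0.0792). Leaving out the young library with most of a gene's counts raised the fitted change: without young library 2, Mzb1 reached 7.28, Jchain 6.12, Cd79a 5.32 and Cd8a 3.36. Without young library 3, Cd79b reached 8.5 and Ms4a1 4.17, and without young library 1, Cd3e reached 3.69.

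The second comparison, of treated and untreated aged libraries, asks how the genes differ with EGCG, and here the B lineage genes did not share a direction. Jchain fell to 0.339 times its aged level, Cd79a and Cd8a were called higher, and the other 5 genes did not pass the test. Jchain had 164, 174 and 153 counts in the treated libraries against 456, 499 and 639 in the aged ones, or 4.48 ± 0.23 against 13.2 ± 1.8 CPM (log2 fold change -1.56, SE 0.15, adjusted p = 6.14e-12). The treated libraries lay close to each other and far below all 3 aged ones. Without each library in turn the change stayed between -1.63 and -1.44. Of the 8 genes 2 were called higher and 1 lower, and among all tested genes 31.8% were called higher and 31.5% lower, 63.3% together. Cd8a reached the filter's minimum of 0.282 CPM in 3 treated, 1 aged and 0 young libraries. It thus entered the test through the treated group in which it was high, and its call is no support by itself. Ms4a1, which did not pass, reached that minimum in 3 treated, 2 aged and 0 young libraries. The groups did not overlap in CPM for 2 of the 8 that were higher and 3 that were lower, against 33.6% and 33.3% of all tested genes.

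Cd79a had 36, 94 and 52 counts in the treated libraries against 41, 31 and 18 in the aged ones, or 1.66 ± 0.81 against 0.756 ± 0.32 CPM (log2 fold change 1.14, SE 0.42, adjusted p = 0.0186). Treated library 1 lay inside the aged range, so the groups overlapped. The call was lost without treated library 2 (0.68, adjusted p = 0.232) or aged library 3 (0.85, adjusted p = 0.115). Cd79b, whose product pairs with that of Cd79a, had the opposite sign. It had 28, 34 and 25 counts in the treated libraries against 43, 57 and 48 in the aged ones, or 0.794 ± 0.12 against 1.23 ± 0.18 CPM (-0.63, 95% interval -1.43 to 0.17, adjusted p = 0.177). Its groups did not overlap, and it was called lower on log2(FPKM + 1) with limma (-0.30, adjusted p = 0.00173) and on log2(FPKM + 0.1) (-0.58, adjusted p = 0.0094).

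Ms4a1 and Mzb1 did not pass and had opposite signs. Ms4a1, the CD20 gene of mature B cells, had 15, 27 and 27 counts in the treated against 19, 9 and 13 in the aged libraries (log2 fold change 0.88, 95% interval -0.25 to 2.01, adjusted p = 0.184), with treated library 1 inside the aged range. Mzb1, the chaperone gene of antibody-making cells, had 12, 10 and 11 counts in the treated against 27, 21 and 15 in the aged libraries (-0.80, interval -1.98 to 0.38, adjusted p = 0.249). Its groups did not overlap, and it was called lower on log2(FPKM + 1) with limma (-0.25, adjusted p = 0.0223) but did not pass on log2(FPKM + 0.1) (-0.64, adjusted p = 0.12). Both genes are covered by few counts, and the intervals allow a change in either direction.

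Among the T and NK genes, Cd8a had 16, 37 and 13 counts in the treated against 8, 12 and 3 in the aged libraries, or 0.600 ± 0.35 against 0.194 ± 0.12 CPM (log2 fold change 1.63, SE 0.63, adjusted p = 0.0235). The groups did not overlap, and treated library 2 was the highest for Cd8a as it was for Cd79a. The call was lost without treated library 2 (1.04, adjusted p = 0.227), aged library 3 (1.23, 0.13) or aged library 1 (1.68, 0.0507). Cd3e had 20, 17 and 25 counts in the treated against 23, 15 and 14 in the aged libraries (0.38, 95% interval -0.71 to 1.48, adjusted p = 0.565), and its groups overlapped. Nkg7 had 22, 15 and 17 against 13, 14 and 16 counts (0.46, interval -0.60 to 1.53, adjusted p = 0.47), with no overlap in CPM, and was called higher on log2(FPKM + 1) with limma (0.15, adjusted p = 0.0331) but did not pass on log2(FPKM + 0.1) (0.37, adjusted p = 0.107).

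**Figure D2:**
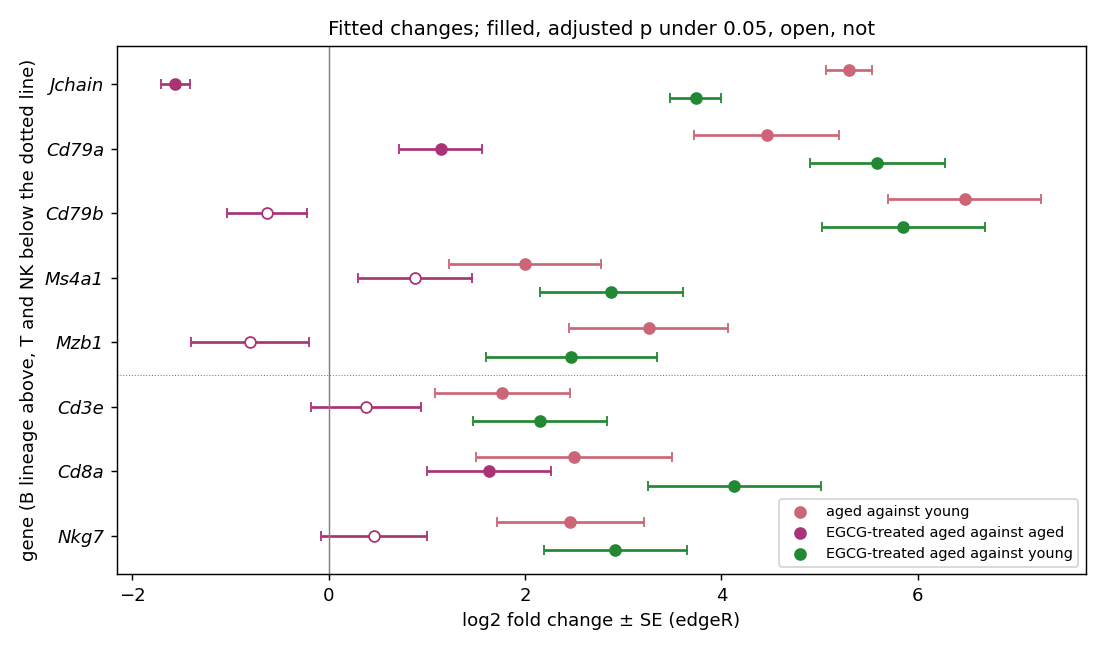
Fitted log2 fold change ± SE (x axis) of each gene (y axis) in the 3 comparisons, filled where the adjusted p was under 0.05. Changes with age lie right of 0 for all 8 genes, and those with treatment run from -1.56 for Jchain to 1.63 for Cd8a.

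The B lineage sum therefore depended on Jchain, which held 82.3% of the counts of the 5 genes over the aged libraries and 57.0% over the treated ones. The 5 genes summed to 0.506 ± 0.29 CPM in young, 16.0 ± 1.2 in aged and 7.87 ± 1.2 in treated libraries (SD, n = 3). Without Jchain the other 4 summed to 0.174 ± 0.13, 2.86 ± 0.57 and 3.39 ± 1.0 CPM, so the mean log2 ratio of treated to aged libraries went from -1.04 to 0.223. The sums of these 4 genes overlapped between the aged (2.23 to 3.36 CPM) and the treated libraries (2.48 to 4.48 CPM), so they show no clear change with treatment. The share of Jchain was 77.8, 80.9 and 87.2% in the aged libraries and 64.3, 51.3 and 57.1% in the treated ones. These shares did not overlap. There were 11.1, 16.1 and 35.5 Jchain counts per Cd79a count in the aged and 4.56, 1.85 and 2.94 in the treated libraries, a ratio of genes picked for their opposite calls. Exact permutation tests gave a two-sided p of 0.1 for the share and for the log2 ratio, the smallest that 3 against 3 libraries can give. Both measures were chosen after the fall of Jchain had been seen, so their separation follows from that fall and is no further support. The 3 T and NK genes summed to 0.220 ± 0.15 CPM in young, 0.985 ± 0.18 in aged and 1.66 ± 0.19 in treated libraries, with no overlap between groups. Among them Cd8a alone passed the test with treatment. Wider lists did not share this rise. The 23 listed NK and cytotoxic genes summed to 8.19 to 9.75 CPM in the aged and 6.19 to 7.80 in the treated libraries. The T cell list overlapped, at 25.8 to 27.8 and 25.1 to 26.9 CPM.

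**Figure D3:**
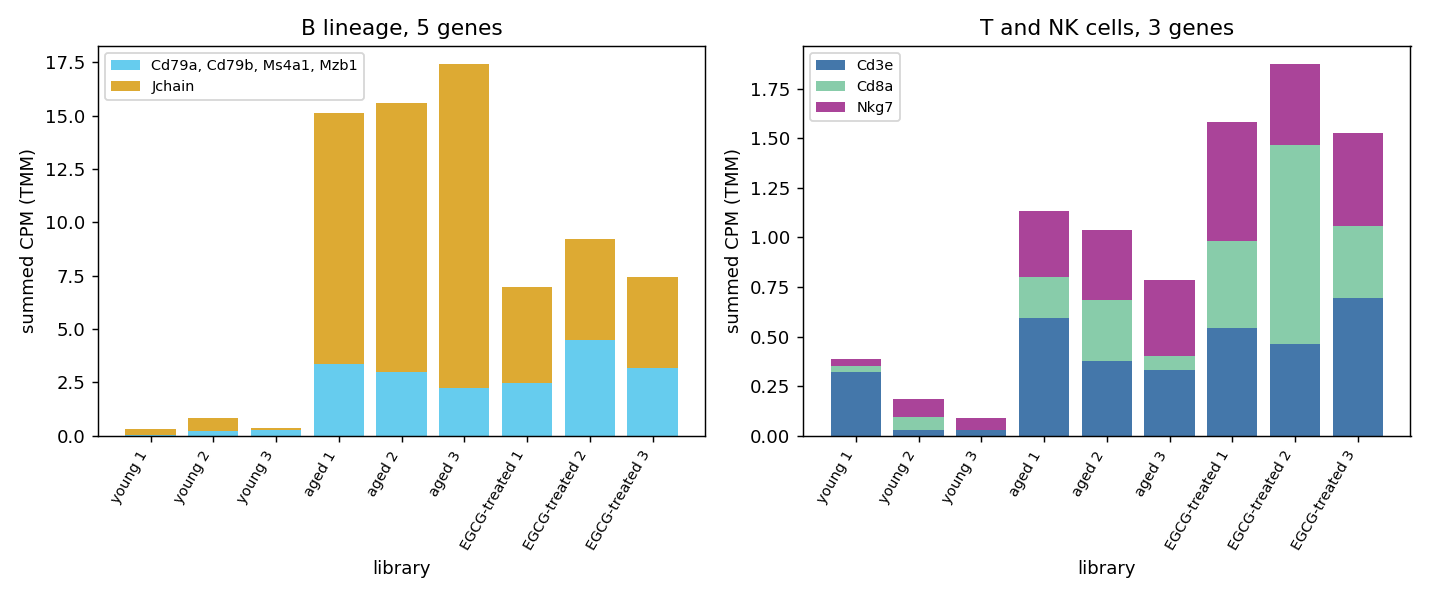
Summed CPM (y axis, from 0) of the 5 B lineage genes, with Jchain stacked on the other 4 (left), and of the 3 T and NK genes (right) in each library (x axis). Jchain makes up 77.8 to 87.2% of B lineage counts in the aged libraries and 51.3 to 64.3% in the treated ones. The sum of the 3 T and NK genes is highest in the 3 treated libraries, where Cd8a alone of these genes passed the test against the aged ones.

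The third comparison, of treated aged and young libraries, asks what differed from the young group after treatment. All 8 genes were higher in the treated libraries, with the same reservation about the filter, where 30.8% of tested genes were called higher and 62.9% in either direction. Jchain, although lower than in untreated aged libraries, was still 13.5 times its young level (log2 fold change 3.74, SE 0.26, adjusted p = 7.4e-17). Cd79a (5.59, SE 0.69, adjusted p = 2.48e-09) and Cd79b (5.85, SE 0.83, adjusted p = 5.26e-08) had the largest changes, with ratios of 53.5 (exact 95% interval 18.0 to 262) and 76.7 (13.4 to 3070) over 3 and 1 young counts. Cd8a followed (4.13, SE 0.88, adjusted p = 8.3e-05; ratio 19.4, interval 6.36 to 96.5). Nkg7 (2.92), Ms4a1 (2.88) and Cd3e (2.15) had adjusted p of 0.000596, 0.00073 and 0.00572. Mzb1 (2.47, adjusted p = 0.0123) missed the threshold without young library 1 (1.93, 0.0606) or young library 3 (1.90, 0.0638), and reached 6.49 without young library 2, which held all its young counts. Without that library Jchain reached 4.56, Cd79a 6.46 and Cd8a 4.99. Without young library 3, Cd79b reached 7.87 and Ms4a1 5.05, and without young library 1, Cd3e reached 4.07. Without treated library 2, Cd8a was 3.54. The aged against young and the treated against young comparisons share the young libraries, and the treated against aged comparison shares libraries with each.

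Most further B cell genes rose with age and did not pass with treatment. Of 25 listed B cell genes, 18 were tested. With age 16 rose and 0 fell (median log2 fold change 2.67, against -0.01 over all tested genes). With treatment 1 rose, 2 fell and 15 did not pass (median -0.02, against 0.01 over all). Of all tested genes, 33.4% rose and 36.1% fell with age, and 31.8% rose and 31.5% fell with treatment, and the counts of each list below stand beside these shares. Listed genes that were low in the young libraries passed the filter through the aged or treated ones, as the 8 genes did, so counts of risen genes in such lists are no support. Genes that were low in the treated libraries as well passed through the aged ones. For such genes a fall with treatment was favoured by the filter too, so counts of fallen genes that include them are no support either. The 4 genes with the highest levels were Ralgps2, Cd37 (a tetraspanin of leukocytes), Cd72 (an inhibitory coreceptor) and Blnk (an adaptor of B cell receptor signalling). Cd37 rose from 0.352 ± 0.18 to 2.09 ± 0.15 CPM with age (2.56, adjusted p = 3.77e-08) and was at 1.68 ± 0.18 after treatment (-0.31, adjusted p = 0.356). Cd72 rose by 1.70 with age and Blnk by 1.5, and neither passed with treatment (-0.04 and 0.25). Ralgps2, at 9.25 ± 0.77 CPM in the young libraries, made up most of the summed level of the list there. It rose by 0.71 with age and fell by 0.35 with treatment, with means of 15.2 CPM in the aged and 11.9 CPM in the treated libraries. The 25 genes summed to 11.8 to 13.08 CPM in young, 31.07 to 33.22 in aged and 26.85 to 28.03 in treated libraries. The sum was thus lower with treatment, without overlap.

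Some B cell genes were chosen after their values had been seen. The inhibitory receptor gene Cd22 rose by 3.28 with age (adjusted p = 1.15e-08) and stood at 1.87 ± 0.31 CPM after treatment against 1.64 ± 0.41 before (0.19, adjusted p = 0.607). Pou2af1, a coactivator of immunoglobulin genes, rose by 3.26 with age and fell by 1.34 with treatment (34, 26 and 27 against 9, 7 and 15 counts, adjusted p = 0.0394). Fcer2a, the low-affinity IgE receptor gene of mature B cells, rose with treatment (1.99, adjusted p = 0.0224), with 16, 14 and 15 counts against 10, 2 and 0 in the aged libraries.

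Of 15 genes of the plasma cell list 12 were tested. With age 4 rose and 6 fell (median -0.14), and with treatment 6 rose and 3 fell (median 0.14), where 69.5% and 63.3% of all tested genes were called in either direction. The 4 that rose with age, named after their values had been seen, are regulators and surface proteins. Prdm1, the transcription factor gene of plasma cell differentiation, had 2, 8 and 5 counts in young, 33, 35 and 53 in aged and 11, 1 and 14 in treated libraries (2.66 with age, adjusted p = 0.000175, and -2.05 with treatment, adjusted p = 0.00152). Slamf7 rose by 2.42 with age and fell by 1.06 with treatment (adjusted p = 0.0377), and Cd38, which other cells also express, rose by 0.85 and fell by 1.15. Irf4 rose by 4.96 with age, from 1 count over the young to 51 over the aged libraries by group, and did not pass with treatment (-0.25, adjusted p = 0.72). The genes that fell with age were Xbp1 (from 427 ± 0.69 to 145 ± 1.4 CPM), Creld2, Txndc5, Sdf2l1 and Fkbp11, which serve protein folding and secretion in many cells, and the surface proteoglycan gene Sdc1, which hepatocytes also express. Xbp1, Txndc5, Creld2, Sdf2l1, Fkbp11 and Derl3 rose with treatment. Tnfrsf17, the gene of the plasma cell survival receptor BCMA, had 0 counts over the young, 1 over the aged and 1 over the treated libraries. Of 12 listed immunoglobulin constant region genes, 0 were matched by symbol, and they were not analysed here.

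For T cells, the partners of Cd3e in the CD3 complex, chosen after their values had been seen, rose with age and did not pass with treatment. Cd3g had 6, 7 and 0 counts in young, 36, 36 and 22 in aged and 26, 20 and 31 in treated libraries (2.51 with age, adjusted p = 0.000374, and -0.16 with treatment, adjusted p = 0.794). Cd3d rose by 4.20 with age (0.80 with treatment, adjusted p = 0.261) and Cd247, the zeta chain, by 2.46 (0.52, adjusted p = 0.443). Cd8b1, whose product pairs with CD8 alpha, was not tested: it had 8, 0 and 0 counts in young, 3, 2 and 1 in aged and 3, 11 and 28 in treated libraries. Its treated libraries 2 and 3 held the most counts, but Cd8a was highest in library 2 and lowest in library 3 of that group. Of 29 listed T cell genes, 26 had a row and 18 were tested. With age 15 rose and 0 fell (median 1.75), and with treatment 0 rose and 4 fell (median -0.23).

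The T cell genes that fell with treatment were Themis (-1.48, adjusted p = 0.000756), a signalling protein of T cells, the costimulatory receptors Cd28 (-1.71, adjusted p = 0.0176) and Icos (-1.31, adjusted p = 0.0293), and the homing receptor Ccr7 (-1.41, adjusted p = 0.0428). Cd28 and Ccr7 had treated means of 0.174 and 0.227 CPM and young means of 0.0107 and 0.0511 CPM, under the filter's minimum of 0.282 CPM. They entered the test mainly through the aged libraries, so the count of fallen T cell genes is no support by itself. Of the 4 genes with the highest levels, Tcf7, a transcription factor of naive and memory T cells, rose by 0.64 with age and Cd4, the helper T cell coreceptor, by 0.70. Cd4 was at 1.94 ± 0.45 CPM in the aged and 1.24 ± 0.029 in the treated libraries, which did not pass (-0.64, adjusted p = 0.051), and macrophages can also express it. Zap70 (0.07) and Thy1 (0.60) did not pass with age. Of 23 NK and cytotoxic genes, 5 were tested: all 5 (Il2rb, Ccl5, Klrk1, Ctsw and Gzmb) rose with age (median 1.93). Klrk1, Ctsw and Gzmb had young means of 0.197, 0.197 and 0.135 CPM, under the filter's minimum of 0.282 CPM, so the filter largely fixed that count. With treatment 0 passed by edgeR (median -0.34), where Klrk1 alone had an unadjusted p under 0.05 (0.0323, adjusted p = 0.0509). Ccl5, a chemokine of cytotoxic cells, rose from 0.557 ± 0.16 to 2.13 ± 0.29 CPM and stood at 1.68 ± 0.31 after treatment (-0.34, adjusted p = 0.299). The defining NK gene Ncr1 had 0 counts over the young, 7 over the aged and 1 over the treated libraries, and the granule gene Prf1 had 2, 15 and 7.

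A further list held signals that attract and keep B cells, and carriers of antibody. Of its 14 genes, 13 had a row and 10 were tested, and with age 7 rose and 1 fell (median 0.87). With treatment 0 rose and 5 fell (median -0.23). In either direction 8 and 5 of the 10 were called, where 69.5% and 63.3% of all tested genes were, so the counts are no result about the list. Cxcl13, the chemokine that draws B cells into follicles, had 42, 66 and 54 counts in young, 481, 505 and 522 in aged and 74, 66 and 71 in treated libraries. It rose by 2.90 with age (adjusted p = 4.04e-20) and fell by 2.70 with treatment (adjusted p = 1.95e-19), and stood at 1.93 ± 0.12 CPM against 1.67 ± 0.35 in the young (0.20, adjusted p = 0.356). Tnfsf13b, the gene of the B cell survival factor BAFF, rose by 2.70 and fell by 1.80 (adjusted p = 0.0265) over 6, 51 and 13 counts by group. Pigr, the receptor that carries J chain-linked antibody, was abundant and went the same way: 1980 ± 13 CPM in young, 2383 ± 21 in aged and 1952 ± 14 in treated libraries (0.27 and -0.29, adjusted p = 1.28e-16 and 1.53e-17). Cxcl12 rose by 0.49 and fell by 0.17, Fcer1g rose by 1.49 and fell by 0.40, and Fcgrt, the neonatal Fc receptor gene, rose by 0.14 and did not pass with treatment (-0.07). Cxcl13, Tnfsf13b, Ccl21a and Ltb were named after their values had been seen. Ccl21a fell by 2.04 with age, and Ltb (lymphotoxin beta) rose by 1.97 and was level with treatment at 0.862 ± 0.11 and 0.848 ± 0.19 CPM (-0.02, adjusted p = 0.965).

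Markers of other blood cells were measured beside these genes. Of 15 pan-leukocyte genes, 14 rose with age (median 1.95), and 11 fell and 0 rose with treatment (median -1.01), where 33.4% of all tested genes rose with age and 31.5% fell with treatment. Their sum was 44.2 to 46.5 CPM in young, 134 to 136 in aged and 70.2 to 74.4 in treated libraries. Ptprc, the gene of the leukocyte antigen CD45, went from 3.07 ± 0.6 to 14.02 ± 1.1 and 6.24 ± 0.053 CPM. All 13 macrophage and Kupffer cell genes rose with age and fell with treatment (medians 2.35 and -1.07), with sums of 147 to 148, 785 to 803 and 301 to 312 CPM. None of the 13 was at 0 in a group. The sum of the 7 red cell genes was 280 to 290 CPM in young, 266 to 268 in aged and 391 to 402 in treated libraries. The red cell sum was lowest in the aged group and highest in the treated group, but its genes did not share a direction with age. Hbb-bs and Hba-a1 were called higher with age (0.17 and 0.14), and Hba-a2 and Alas2 lower (-0.27 and -0.33). With treatment all 5 tested red cell genes rose. The part of these cells in the results was not tested.

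Plasmacytoid dendritic cells can express Jchain, Mzb1 and Cd79b too. Of 10 listed genes of these cells 5 were tested. With age 4 rose and 0 fell, and with treatment 1 rose and 2 fell. The sum of the 10 was 143 to 153 CPM in young, 155 to 170 in aged and 162 to 164 in treated libraries, mostly from Bst2, which other cells express as well. Their defining gene Siglech had 4, 8 and 2 counts in young, 9, 1 and 7 in aged and 0, 0 and 0 in treated libraries. Irf8, a transcription factor of these and other myeloid and B cells, rose by 0.98 with age and fell by 1.57 with treatment.

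**Figure D4:**
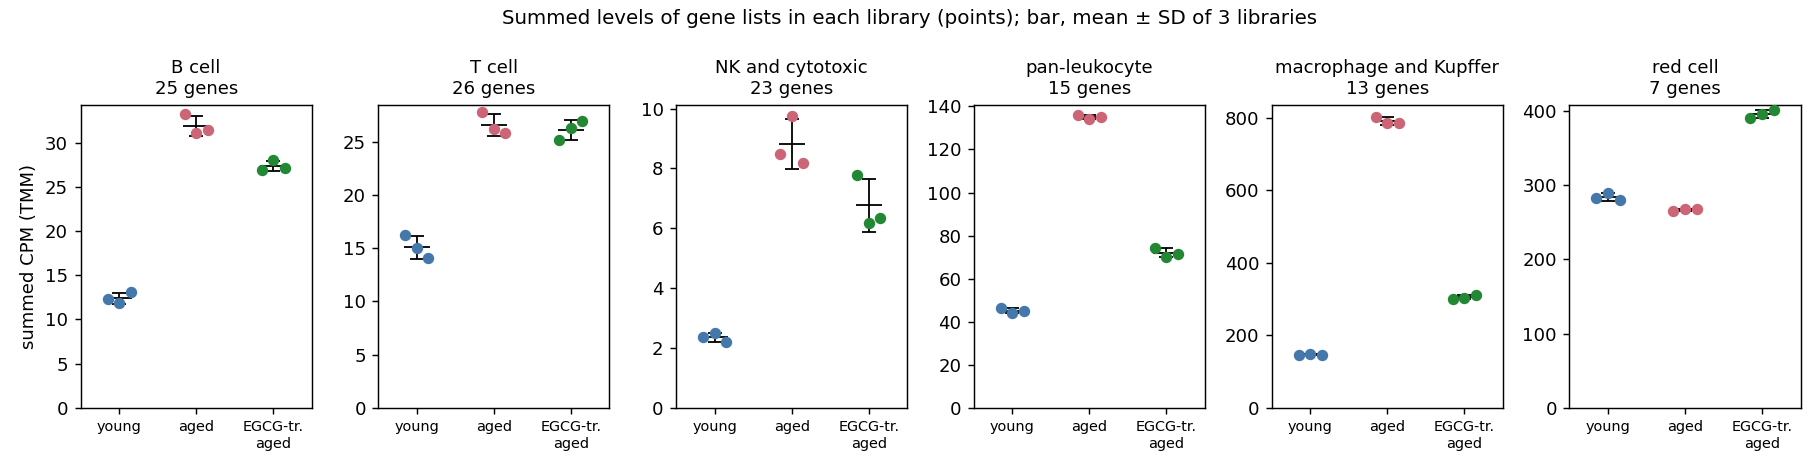
Summed CPM (y axes, linear from 0) of 6 gene lists in each library, by group (x axis); points are libraries and bars are the mean ± SD. The pan-leukocyte and macrophage sums drop between the aged and the treated group (to 70.2 to 74.4 and 301 to 312 CPM), and the T cell sum is 25.8 to 27.8 CPM in the aged and 25.1 to 26.9 in the treated libraries.

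The genes most like each of the 8 were found by the root mean square (RMS) difference between log2 CPM profiles, each centred on its own mean, over the 9 libraries and 12441 named genes. For Jchain these were Nr4a1 (RMS 0.551), a nuclear receptor gene of the immediate early response, Ppp1r3c (0.589), a glycogen-targeting phosphatase subunit, and Arrdc3 (0.676), an alpha-arrestin. The median over all genes compared was 2.33. For Cd79a they were Egr1 (0.516), Slc22a27 (0.529) and Chka (0.556), and for Cd79b Kcna2 (0.305), Ppp1r3c (0.316) and Ccn1 (0.376). The nearest profile to Mzb1 was that of Nr1h5 (0.316), followed by Cyp4f18 (0.349) and the leukocyte gene Cd37 (0.389). Ms4a1 was nearest to Srcin1 (0.439), Cd3e to Speg (0.298), Cd8a to Sp5 (0.402) and Nkg7 to Smad6 (0.166). A profile of 9 libraries in 3 groups holds little detail, and many genes share it.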

How the data were processed

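The members and gene lists were chosen with earlier results of these data known. Per the file headers, the authors deposited raw gene counts and, in a second table, FPKM. GRCm38 and mm10 are the builds in the submitters' processing notes, and the sources used here name no aligner, counter or annotation. RNA came from a Qiagen column kit and libraries from a SMARTER mRNA-seq kit, per the labels' protocols. The count test was that of edgeR 4.0.16 (R 4.3.3): filterByExpr (minimum count 10), TMM factors (0.912 to 0.92 in the young, 1.027 to 1.055 in the other libraries), a quasi-likelihood fit over the 9 libraries with group as the factor, and Benjamini-Hochberg adjustment over the 12747 genes tested, with a threshold of 0.05. SE were derived from the F statistics, and 95% intervals of log2 fold changes are normal intervals from them. Ratios carry exact conditional binomial intervals.

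The alternatives were DESeq2 1.42.0 size factors and test, upper-quartile factors, library totals, no filter, limma 3.58.1 on log2 FPKM with pseudocounts of 1 and 0.1, fits of the compared groups alone, the replicate number as a block, and leaving out each library. Steps were tested on simulated counts. For the edgeR fit these had the same spread for all genes (biological coefficient of variation 5.37%). That simulation therefore does not show how the fit behaves for genes with as few young counts as the 8. Libraries of a group differed by more than sampling noise (chi-square per gene 3.79 to 4.78). Other genes named are the 4 with the highest mean CPM of each list and, for each of the 8, the 3 nearest profiles (the nearest alone for some), and genes outside this rule are said to be so.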

Additional observations from a re-analysis of the deposited data

How the results depend on the processing

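Of the changes of single genes in the 3 comparisons, 407 values under the alternatives kept direction and side of the threshold, 18 lost and 4 gained a call, and 0 turned. These values include fits without a library of the group outside the comparison, which could hardly move the estimate. Their agreement adds little. The 8 genes kept their calls with other scaling factors, library totals, the DESeq2 test and no filter. In the comparison of EGCG-treated with untreated aged libraries, 3 genes were called lower on log2(FPKM + 1) and 2 on log2(FPKM + 0.1), against 1 by edgeR. Without each library in turn, 0 to 2 genes were called higher and 1 lower. With age, 6 to 8 were then called higher, and 7 to 8 in treated against young libraries. In fits of the compared groups alone, 6 genes passed the filter and were called with age, and 7 in treated against young libraries. The summed B lineage log2 ratio of treated to aged libraries went from -1.04 to 0.223 without Jchain, an alternative chosen after seeing the data. Without Jchain the sums of the aged and the treated libraries overlapped. The replicate numbers share no stated source, and deviations of same-numbered libraries correlated at -0.0609 to 0.0201. With the replicate block 8749, 7957 and 7907 genes were called against 8857, 8064 and 8014, and no call among the 8 genes changed. Depth limits the young group most, where each gene but Jchain had 12 counts or fewer in all.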

Other observations

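Dividing cells and germinal centres, where B cells proliferate, had lists of their own. Of 8 proliferation genes 6 were tested: 0 passed with age by edgeR, also without adjustment, and 2 fell with treatment. Mki67 was at 1.08 ± 0.48 CPM in young, 1.53 ± 0.32 in aged and 0.345 ± 0.24 in EGCG-treated libraries (-2.13 with treatment, adjusted p = 6.86e-05), and Top2a at 0.877 ± 0.52, 1.13 ± 0.19 and 0.274 ± 0.17 CPM (-2.03, adjusted p = 0.000499). Of 6 germinal centre genes 4 had a row and 2 were tested. Bcl6, which hepatocytes also express, rose from 31.0 ± 0.92 to 44.8 ± 2.1 CPM with age and to 118 ± 5.8 CPM with treatment (1.40, adjusted p = 1.03e-27). S1pr2 rose by 1.27 with age and did not pass with treatment (-0.38, adjusted p = 0.0615). Rgs13 had 1 count over all libraries.

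Other blood cells had patterns of their own. All 7 tested neutrophil genes fell with treatment (median -3.07), while 4 rose with age, where 31.5% and 33.4% of all tested genes did so. A gene low in the treated libraries could enter the test only through the untreated ones, so the count of falls is no support by itself. Ngp, a neutrophil granule gene, had 12 counts over the young, 396 over the aged and 1 over the treated libraries. Its means of 0.12 CPM in the young and 0.0091 CPM in the treated libraries lay under the filter's minimum of 0.282 CPM, so it was tested through the aged ones. The mast cell gene Cpa3 had 7 counts over the aged libraries and 0 elsewhere, and Kit, the 1 tested gene of that list, rose with age and fell with treatment (1.52 and -2.04). Of 3 tested platelet genes 1, Itga2b, rose with age (1.40, adjusted p = 0.00019), and 0 passed with treatment by edgeR, where Itga2b had an unadjusted p of 0.0365 and an adjusted p of 0.0568.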
